A study of Mus musculus with 10 samples.

Results

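The subject is a set of 10 genes of the RNA m6A system in the lumbar spinal cord of SOD1G86R mice: the writers Mettl14, Mettl3, Wtap, Virma and Zc3h13, the erasers Alkbh5 and Fto, and the readers Ythdf1, Ythdf2 and Ythdc1. They are 10 of the 32506 genes in the count table, taken by matching Ensembl gene IDs to their mouse symbols, and all 10 were among the 16974 genes with enough counts to be tested. The set was drawn up because Mettl14 was already known to be lower in these mice, and the question was whether its partners followed. The level of Mettl14 is therefore given as a description of its size and not as independent evidence that it fell.

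RNA from lumbar spinal cord of 5 SOD1G86R mice and 5 WT mice was sequenced, 1 library per mouse. Both groups were females of the FVB background (FVB/N in the study's methods) aged 95 days. SOD1G86R mice overexpress a mutant superoxide dismutase and develop motor neuron disease, with motor symptoms at this age that vary in severity between animals. The WT mice were non-transgenic and matched for age and litter. Libraries held 31494723 to 37080445 counts in SOD1G86R mice and 29333590 to 46003999 in WT mice. Sod1, which checks the labels, was counted at 3918 to 6415 CPM in SOD1G86R mice and 127 to 210 CPM in WT mice, where CPM is the share of a library's scaled total, in counts per 1000000. The defining markers of the cord were present in every library, with neuron markers summing to 7634 to 10478 CPM in SOD1G86R mice and 8944 to 9331 CPM in WT mice. Microglia markers, 8 genes with none at 0, summed to 402 to 973 CPM in SOD1G86R mice and 292 to 379 CPM in WT mice. SOD1G86R replicate 4 stood apart: its microglia sum was the 402 CPM, and its sensory ganglion markers summed to 50.9 CPM, against at most 2.998 CPM in the other SOD1G86R mice and 2.89 to 3.95 CPM in WT mice. Its neuron sum was the 10478 CPM. Within its group its astrocyte sum, 7297 CPM, was the lowest and its blood cell sum, 2561 CPM, the highest.

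N6-methyladenosine, or m6A, is a methyl group placed on adenosines inside messenger RNA, mostly near stop codons and in long exons. Writers place it: Mettl3 and Mettl14 form a heterodimer in which Mettl3 transfers the methyl group and Mettl14 holds the RNA, and neither works well alone. Wtap, Virma and Zc3h13 belong to the accessory part of the complex, which brings the heterodimer to its RNAs in the nucleus. Erasers remove the mark by oxidation, and readers of the YTH family bind it and direct the RNA to splicing, export, translation or decay. In the nervous system the mark is known for roles in neural progenitors, axon growth and synaptic plasticity.

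The writer heterodimer is shown here by the 60 bases of each messenger around its best-known motif, because Mettl14 and Mettl3 share a fold but not an activity and behaved differently in these mice. The capitals are the 4 codons of the motif, DPPW in Mettl3, where the methyl donor is bound and the reaction takes place, and EPPL at the matching place in Mettl14, which does not catalyse. Both are read on the minus strand of GRCm38 from the GENCODE M21 transcripts, Mettl3 in exon 6 of 11 at chr14:52297557-52297616 and Mettl14 in exon 7 of 11 at chr3:123374781-123374840.
Mettl3: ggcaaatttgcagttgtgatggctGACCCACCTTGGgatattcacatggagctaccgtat
Mettl14: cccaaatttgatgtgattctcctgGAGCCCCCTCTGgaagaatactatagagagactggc
The motif starts at codon 395 of 580 in Mettl3 and at codon 192 of 456 in Mettl14.

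Mettl14 (ENSMUSG00000028114, chr3:123368297-123386108, minus strand) was lower in every SOD1G86R mouse than in any WT mouse. Its level was 13.1, 13.5, 12.6, 14.2 and 12.3 CPM in SOD1G86R replicates 1 to 5, and 28.3, 28.5, 27.8, 28.2 and 28.1 CPM in WT replicates 1 to 5. The groups were far apart, and within a genotype the mice were close to each other. The mean was 13.1 ± 0.761 CPM in SOD1G86R mice and 28.2 ± 0.241 CPM in WT mice (SD, n = 5 each), a log2 fold change of -1.10 (SE 0.06, 95% interval -1.22 to -0.98) in edgeR's quasi-likelihood fit. This left 46.6% of the WT level, with an interval of 42.8 to 50.8%. Counts behind these values ran from 415 to 481 in SOD1G86R mice and from 829 to 1295 in WT mice. The coefficient of variation was 5.79% in SOD1G86R mice, where counting alone gives 4.71%, and 0.854% in WT mice, where counting alone gives 3.21%, so the spread between mice was of the size of counting error or below it. In whole cord, fewer cells of a type and less RNA per cell cannot be told apart, for Mettl14 and for every gene below. SOD1G86R replicate 4 had the highest Mettl14 level of its group. Its sums of microglia and astrocyte markers were the lowest of that group and its sum of neuron markers the highest. The log2 fold change of Mettl14 lay between -1.13 and -1.08 whichever mouse was left out.

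Past an adjusted p of 0.01 in edgeR were 1.12% of all tested genes, 0.253% lower, and among the 10 the 1 gene past it was Mettl14. Since its fall defined the set, nothing is read from that count. Of the other 9, none was called by edgeR, DESeq2 or limma voom, where DESeq2 called 4.38% and limma voom 0.348% of all genes with an adjusted p. With each of these 3 tools the count at an unadjusted p of 0.05 was also 0 of 9, beside 17.1% of all genes in edgeR. All 9 had overlapping groups, where 4.93% of tested genes had groups that did not overlap, 1.84% lower and 3.09% higher. At that background, no call among 9 genes is close to the share of calls among all genes. The smallest unadjusted p among them was 0.158. Their log2 fold changes ran from -0.07 to 0.06 with a median of 0.0022, against a median of -0.01 over all genes tested. In this fit 5 were positive and 4 negative. Some of these signs, and the sign of the median, changed between fits, so nothing is read from them. The median size of the change, without its sign, was 0.04 among the 9 and 0.10 among all genes. The 190 genes called in all, 147 higher and 43 lower, became 868 without SOD1G86R replicate 4 and 31 to 61 when any other mouse was left out, while none of the 9 was called in any of these fits.

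**Figure D1:**
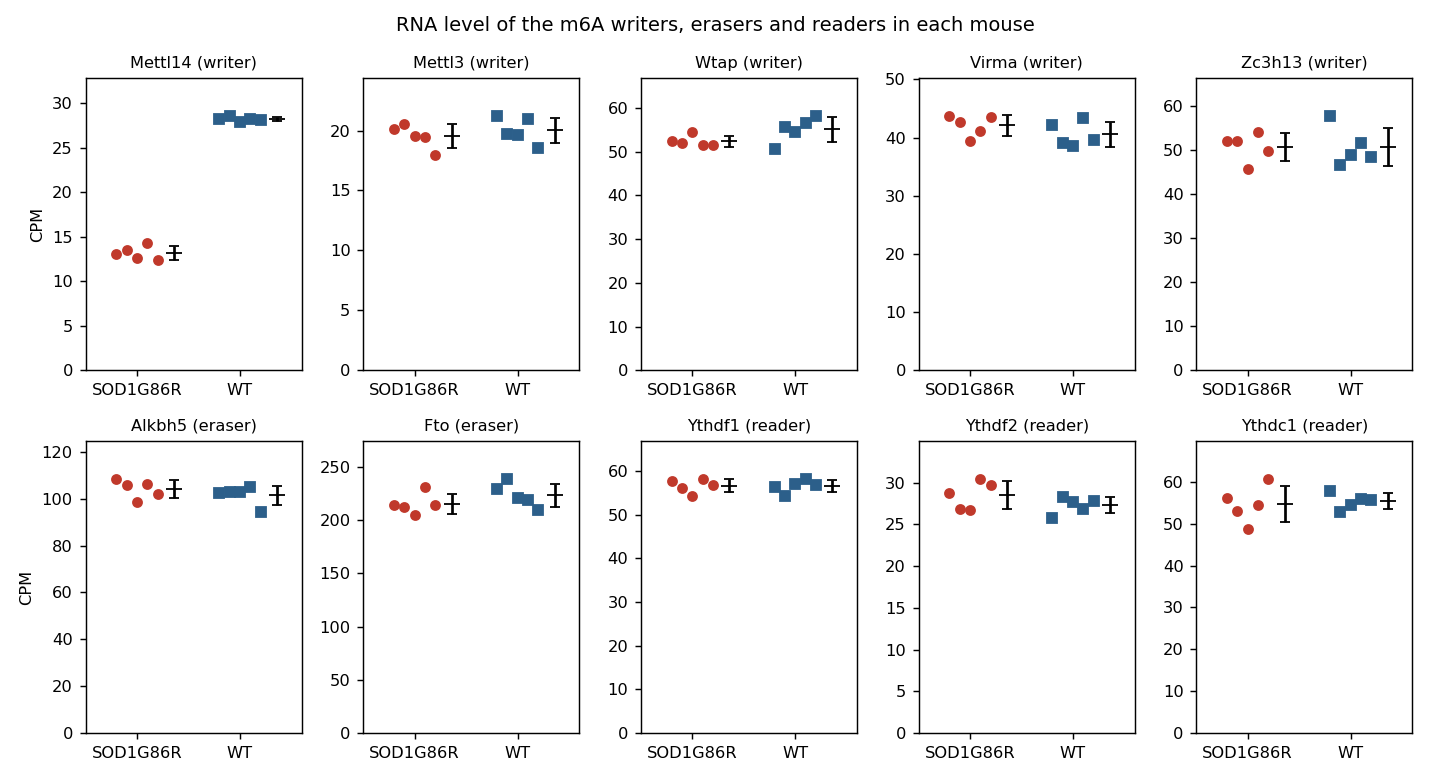
Level in CPM (linear axis from 0) of each m6A gene in each of the 5 SOD1G86R mice (circles) and 5 WT mice (squares), in replicate order, with the group mean and SD as the bar to the right of the points. Mettl14 lies at 12.3 to 14.2 CPM in SOD1G86R mice and 27.8 to 28.5 CPM in WT mice, and the groups overlap for the other 9 genes.

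The plot of levels by mouse shows each of the 10 genes on its own axis, starting at 0, so that the separation of Mettl14 can be set against the spread of the others. Mettl3 is the closest partner of Mettl14, the catalytic subunit of the heterodimer. Mettl3 (ENSMUSG00000022160, chr14:52294841-52305128, minus strand) had 20.1, 20.5, 19.5, 19.4 and 17.9 CPM in SOD1G86R mice, and 21.2, 19.7, 19.6, 21.0 and 18.6 CPM in WT mice. The ranges overlapped over most of their length, and the lowest value of each group was that of replicate 5. The means were 19.5 ± 0.991 and 20.01 ± 1.08 CPM in SOD1G86R and WT mice (SD, n = 5 each), a log2 fold change of -0.04 (SE 0.06, interval -0.17 to 0.10, edgeR adjusted p = 0.818). The Mettl3 gene shares 933 exonic bases with Tox4, a gene on the opposite strand. No strand setting of the counting was found. Whether reads in those bases were counted, and for which of the genes, is therefore not known.

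Wtap, the subunit that holds the heterodimer in nuclear speckles, was the partner with the lowest fold change. Wtap (ENSMUSG00000060475, chr17:12966796-12994169, minus strand) had 52.5, 51.9, 54.4, 51.5 and 51.5 CPM in SOD1G86R mice, against 50.7, 55.7, 54.5, 56.6 and 58.1 CPM in WT mice. In WT mice 4 of the 5 values lay above all SOD1G86R values and replicate 1 lay below them all, so the groups overlapped. The log2 fold change was -0.07 (SE 0.05, edgeR adjusted p = 0.482), which is 95.0% of the WT level with an interval of 88.2 to 102%.

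Virma and Zc3h13, the large accessory subunits, had overlapping values in the 2 genotypes. Virma (ENSMUSG00000040720, chr4:11485958-11550684, plus strand), which directs the complex to sites near stop codons in human cells, had 43.6, 42.6, 39.5, 41.2 and 43.6 CPM in SOD1G86R mice and 42.2, 39.0, 38.6, 43.3 and 39.6 CPM in WT mice. Its log2 fold change was 0.05 (interval -0.06 to 0.17, edgeR adjusted p = 0.661). Zc3h13 (ENSMUSG00000022000, chr14:75284373-75344426, plus strand), which keeps the complex in the nucleus, had 52.1, 52.1, 45.7, 54.1 and 49.8 CPM in SOD1G86R mice and 57.6, 46.5, 48.9, 51.7 and 48.4 CPM in WT mice. The highest and the second lowest value were both from WT mice, and the log2 fold change was 0.0044 (interval -0.14 to 0.15, edgeR adjusted p = 0.984). Zc3h13 had the widest spread among the WT mice of the 10 genes, with a coefficient of variation of 8.54%.

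The erasers did not pass the test in either direction. Alkbh5 (ENSMUSG00000042650, chr11:60536381-60558512, plus strand), a nuclear demethylase of m6A, had 108, 106, 98.5, 106 and 102 CPM in SOD1G86R mice and 102, 103, 103, 105 and 94.4 CPM in WT mice. The lowest value was that of WT replicate 5, and the log2 fold change was 0.04 (interval -0.07 to 0.14, edgeR adjusted p = 0.741). Fto (ENSMUSG00000055932, chr8:91313525-91668439, plus strand), which removes m6A and the related cap-adjacent mark m6Am, had 214, 212, 204, 231 and 215 CPM in SOD1G86R mice and 229, 238, 221, 219 and 210 CPM in WT mice. Most WT values were above most SOD1G86R values, but the groups overlapped, and the log2 fold change was -0.05 (interval -0.16 to 0.06, edgeR adjusted p = 0.636). Exons of 2 transcripts of uncertain function on the opposite strand cover 144 and 304 bases of the exons of Fto.

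The readers differed between genotypes by no more than the spread between mice, and none passed the test. Ythdf1 (ENSMUSG00000038848, chr2:180904377-180920949, minus strand), a cytoplasmic reader linked to translation and to memory in mice, had 57.7, 56.1, 54.4, 58.1 and 56.8 CPM in SOD1G86R mice and 56.3, 54.4, 57.0, 58.1 and 56.8 CPM in WT mice. It was the tightest of the 9, with a log2 fold change of 0.0022 and an interval of -0.09 to 0.10 (edgeR adjusted p = 0.988). Ythdf2 (ENSMUSG00000040025, chr4:132184912-132212303, minus strand), which brings methylated RNA to the CCR4-NOT deadenylase for decay, had 28.7, 26.9, 26.7, 30.4 and 29.7 CPM in SOD1G86R mice and 25.8, 28.3, 27.7, 26.9 and 27.8 CPM in WT mice. Ythdf2 had the highest fold change of the 9, a log2 value of 0.06 with an interval of -0.06 to 0.19 (edgeR adjusted p = 0.636). Ythdc1 (ENSMUSG00000035851, chr5:86804221-86836659, plus strand), the nuclear reader that acts in splicing and export, had 56.1, 53.1, 48.8, 54.5 and 60.6 CPM in SOD1G86R mice and 57.9, 52.8, 54.6, 55.9 and 55.6 CPM in WT mice. Both its lowest and its highest value were from SOD1G86R mice, and its log2 fold change was -0.02 (interval -0.15 to 0.11, edgeR adjusted p = 0.908). Ythdc1 shares 631 exonic bases with Gm43055, a long noncoding RNA on the same strand.

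**Figure D2:**
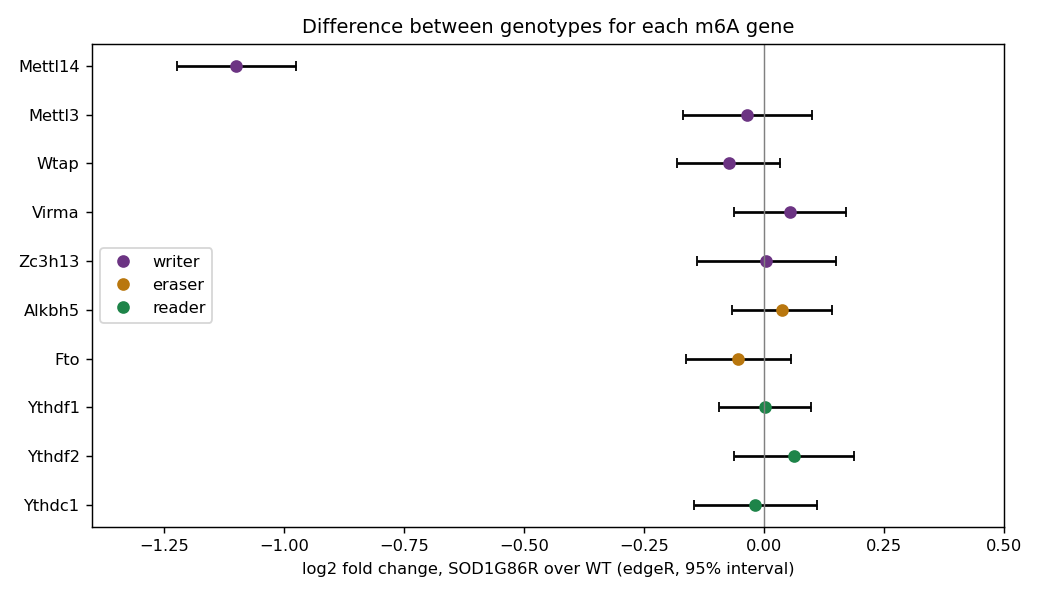
Log2 fold change of SOD1G86R over WT for each of the 10 m6A genes from edgeR, with 95% intervals, coloured by role (n = 5 mice per genotype). The interval of Mettl14 runs from -1.22 to -0.98, and those of the other 9 genes cross 0.

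The plot of fold changes sets these intervals side by side. How far a partner could have followed Mettl14 is bounded by them: among the 9, the lowest bound was 88.2% of the WT level, for Wtap, and the highest was 113.9%, for Ythdf2. A fall larger than 11.8% or a rise larger than 13.9% therefore lay outside the 95% interval of each of these 9 genes. Some intervals were narrower, such as 93.7 to 107% of the WT level for Ythdf1. Changes inside the interval of a gene cannot be told from none with 5 mice per genotype. Across 21 fits, which changed the tool, scaling, filter or mice, the 189 log2 fold changes of the 9 genes lay between -0.11 and 0.09, and the lowest adjusted p among them was 0.318. Among these fits, Zc3h13 and Ythdf1 changed sign with the scaling or with the mouse left out and Ythdc1 without SOD1G86R replicate 3, so no direction is given for these 3 genes.

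Mettl14 was also set against each partner by the ratio of the 2 counts within a mouse, which needs no scaling between libraries. All 9 ratios share the Mettl14 counts, whose fall was known, so they are given as a description with no test. For Mettl3, there were 0.650, 0.657, 0.643, 0.733 and 0.687 Mettl14 counts per Mettl3 count in SOD1G86R mice, against 1.33, 1.45, 1.42, 1.34 and 1.51 in WT mice. The Mettl14 count was thus below the Mettl3 count in all SOD1G86R mice and above it in all WT mice. Counts grow with length, and the exons span 7419 bases in Mettl14 and 5076 in Mettl3. The counts therefore give no order of the 2 messengers, whose levels per kb are given below. The log2 ratio was -0.57 ± 0.08 in SOD1G86R mice and 0.50 ± 0.08 in WT mice (SD, n = 5 each), a difference of -1.07, close to the -1.10 of Mettl14 alone. Over the 9 partners the difference of log2 ratios ran from -1.16, for Ythdf2, to -1.03, for Wtap. The mean ratio to Ythdf2 was 0.461 in SOD1G86R mice and 1.03 in WT mice, and the mean ratio to Fto, the most highly counted partner, was 0.0610 in SOD1G86R mice and 0.126 in WT mice.

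**Figure D3:**
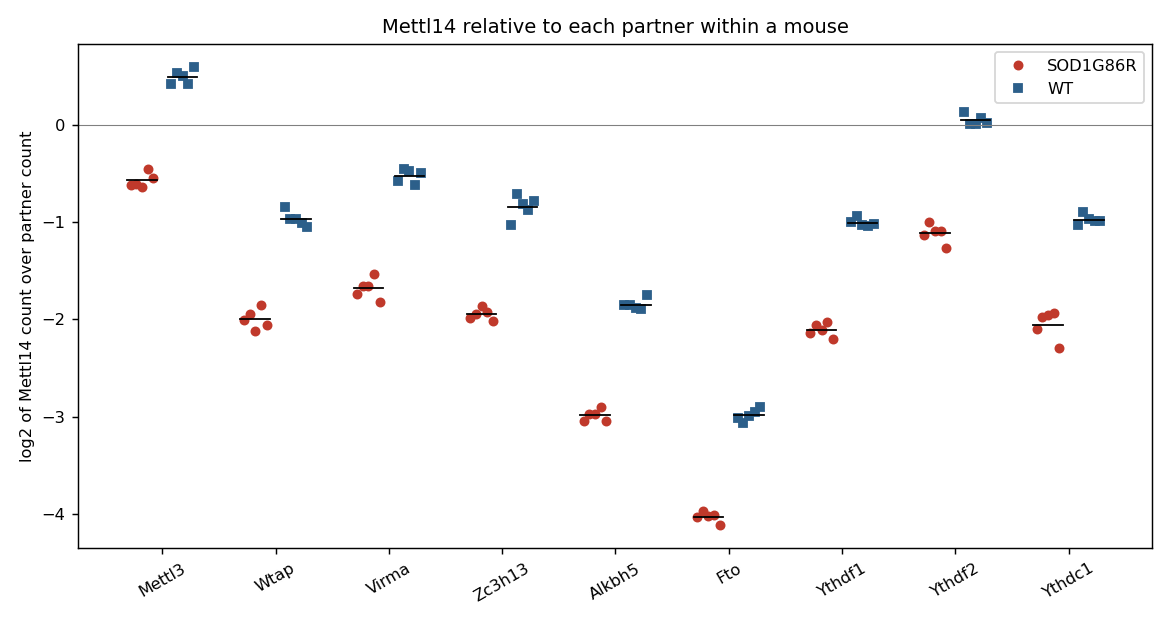
Log2 of the Mettl14 count over the count of each of the 9 partners within a mouse, for 5 SOD1G86R mice (circles) and 5 WT mice (squares), with a line at each group mean. For every partner the SOD1G86R mice lie below the WT mice, by -1.03 (Wtap) to -1.16 (Ythdf2) on the log2 scale.

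In the plot of within-mouse ratios the step between genotypes is that of the shared Mettl14 counts, and its height varies with the partner. To set levels of different genes side by side, CPM was divided by the length of all annotated exons, in kb. In WT mice the order by CPM per kb was Fto at 17.2 ± 0.83, Ythdf1 at 17.0 ± 0.413, Alkbh5 at 17.0 ± 0.682, Wtap at 8.82 ± 0.444, Zc3h13 at 8.06 ± 0.689, Ythdf2 at 5.97 ± 0.212, Virma at 5.68 ± 0.292, Ythdc1 at 4.06 ± 0.136, Mettl3 at 3.94 ± 0.213 and Mettl14 at 3.80 ± 0.0325 (SD, n = 5). Neighbours in that order overlapped between mice except at 3 steps, Alkbh5 to Wtap, Zc3h13 to Ythdf2 and Virma to Ythdc1. The heterodimer thus stood at the bottom of the order, with Mettl14 and Mettl3 overlapping in WT mice. In SOD1G86R mice Mettl14 was at 1.77 ± 0.103 and Mettl3 at 3.85 ± 0.195 CPM per kb (SD, n = 5), with no overlap between them, so that Mettl14 stood alone at the bottom. The other 9 kept to 3.85 to 17.4 CPM per kb in SOD1G86R mice, where Alkbh5, Ythdf1 and Fto again overlapped at the top. With the longest annotated transcript as the length, Mettl14 was again last in both genotypes, at 1.83 CPM per kb in SOD1G86R mice and 3.91 in WT mice. Mettl3 moved to rank 5, at 9.04 CPM per kb in SOD1G86R mice and 9.27 in WT mice, so the nearness of Mettl3 and Mettl14 in WT mice rests on the length used. Fto then stood above the rest, at 45.7 in SOD1G86R mice and 47.5 in WT mice. In WT mice Wtap, at 17.3, came near Ythdf1 and Alkbh5, each at 17.7. The shared top and the step from Alkbh5 to Wtap thus rest on the length too.

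The position of Mettl14 sets it apart from its partners. It lies on chromosome 3, and the 9 others lie on 7 chromosomes, none of them chromosome 3. The nearest tested gene on its lower side is Sec24d, a coat protein of transport vesicles, 2.66 kb away, with 7.77 ± 1.31 CPM in SOD1G86R mice and 14.8 ± 0.647 CPM in WT mice (SD, n = 5 each), a log2 fold change of -0.93 (edgeR adjusted p = 0.000470). On the other side, 60.8 kb away, lies Prss12, the synaptic protease neurotrypsin, with 5.64 ± 0.920 CPM in SOD1G86R mice and 12.8 ± 0.993 CPM in WT mice (SD, n = 5 each), a log2 fold change of -1.18 (edgeR adjusted p = 9.65e-05). Both neighbours were thus lower by a similar factor, in both without overlap between the groups. Of the 908 tested genes of chromosome 3, 25 were called lower, of 43 in all.

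The genes whose pattern over the 10 mice was most like that of Mettl14 were also from chromosome 3. Likeness was measured as the root mean square difference of log2 level, each gene less its own WT mean, and the 5 nearest genes of all tested were Tram1l1 (0.0689), Fnbp1l (0.0987), Abcd3 (0.111), Prss12 (0.117) and Rwdd3 (0.122). Tram1l1, a relative of a protein of the endoplasmic reticulum translocation channel, had 11.9 to 14.1 CPM in SOD1G86R mice and 28.4 to 31.3 CPM in WT mice. It was close to Mettl14 in difference and in CPM, which is not corrected for length. Abcd3, a peroxisomal transporter, had 52.5 to 59.9 CPM in SOD1G86R mice and 106 to 124 CPM in WT mice. Of the 20 nearest genes, 19 lay on chromosome 3, between positions 121155398 and 126846326, an interval that contains Mettl14. The measure includes the step between genotypes, so a gene without a like fall could not be among these 20. Nothing is read from the absence of the 9 partners. What the location has to do with the level of Mettl14 was not tested.

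Other genes of the pathway were read from lists of 55 genes, of which 53 were tested, since Igf2bp1 and Igf2bp3 had almost no counts. Of the 53, 1 was called higher (Socs3) and none lower, beside 0.866% of all genes called higher, and at an unadjusted p of 0.05 the counts were 6 higher and 0 lower, beside 10.8% of all genes higher and 6.33% lower. By DESeq2, 3 of these genes were called (Socs3, Mtr and Myc), all higher, beside 3.82% of all genes called higher by that tool, and by limma voom none, beside 0.348%. Groups did not overlap for 2 of the 53, Socs3 and Mtr, both higher, beside 3.09% of all genes. The counts of higher genes are near those shares. The median log2 fold change of the 53 was 0.01, and 46 of them lay within 0.2 of zero.

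**Figure D4:**
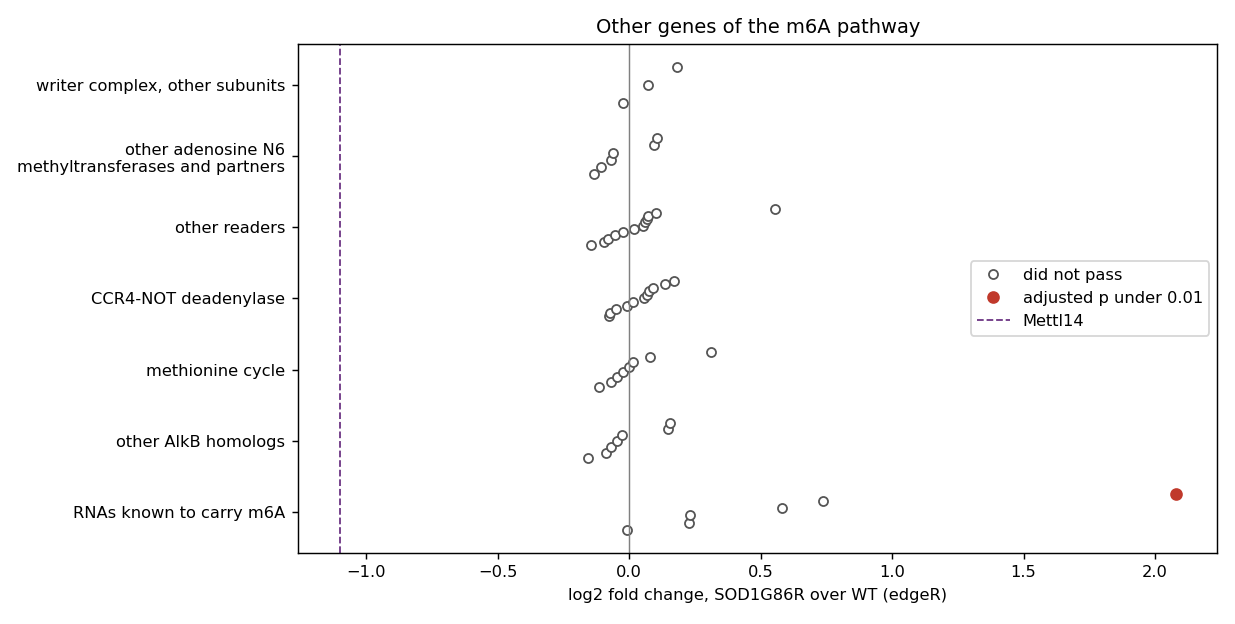
Log2 fold change of SOD1G86R over WT (edgeR, n = 5 mice per genotype) for the 53 tested genes of 7 lists around the m6A system, each circle a gene, filled where the adjusted p is under 0.01. The dashed line marks Mettl14 at -1.10, and the 1 filled circle is Socs3 at 2.08.

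As the plot of the 7 lists shows, no gene of them lay near Mettl14, the lowest being at -0.16. Among the other subunits of the writer complex, Rbm15, which guides the complex to its RNAs and is itself on chromosome 3 at 16.0 Mb from Mettl14, had the smallest p: 9.57 to 15.6 CPM in SOD1G86R mice and 10.3 to 11.7 CPM in WT mice, with a log2 fold change of 0.18 (edgeR adjusted p = 0.510). The other 2 subunits, Rbm15b and Cbll1, had log2 fold changes of -0.02 and 0.07. The 6 other adenosine methyltransferases and partners had log2 fold changes between -0.13 and 0.10, and the one with the smallest p was Pcif1, which writes m6Am next to the cap, at 49.7 to 57.0 CPM in SOD1G86R mice and 47.2 to 54.6 CPM in WT mice. Of these 9 genes, 0 were called by edgeR, DESeq2 or limma voom, and 0 reached an unadjusted p of 0.05 in edgeR.

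Of the 12 other readers tested, none was called by edgeR, DESeq2 or limma voom, and edgeR gave 1 of them an unadjusted p below 0.05. That gene was Igf2bp2, a reader that stabilises its targets, at 1.04 to 1.70 CPM in SOD1G86R mice and 0.635 to 1.33 CPM in WT mice, with a log2 fold change of 0.56 (edgeR adjusted p = 0.212). Ythdf3, the closest relative of Ythdf1 and Ythdf2 and a gene of chromosome 3, had 47.6 to 63.8 CPM in SOD1G86R mice and 49.5 to 53.5 CPM in WT mice. The 11 genes listed for the CCR4-NOT deadenylase, through which Ythdf2 acts, had log2 fold changes between -0.08 and 0.17, none called. Its scaffold Cnot1 had the smallest p, at 95.1 to 117 CPM in SOD1G86R mice and 88.8 to 97.9 CPM in WT mice (log2 fold change 0.14, edgeR adjusted p = 0.277). The 7 other AlkB homologs, relatives of the erasers, lay between -0.16 and 0.16, and Alkbh3, a demethylase of alkylated nucleic acids, had the smallest p, at 11.6 to 14.6 CPM in SOD1G86R mice and 10.9 to 12.8 CPM in WT mice.

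The methionine cycle supplies the methyl donor S-adenosylmethionine to the writers. Of its 8 genes none was called by edgeR, and 7 had log2 fold changes between -0.11 and 0.08. The exception was Mtr, methionine synthase, with 11.6, 12.5, 10.96, 11.1 and 13.8 CPM in SOD1G86R mice and 10.8, 9.37, 9.62, 9.15 and 9.43 CPM in WT mice. Its groups did not overlap, but its log2 fold change of 0.31 (SE 0.08) had an edgeR adjusted p of 0.0521, against 0.00970 by DESeq2. Mat2a, which makes the donor and whose messenger is itself methylated by Mettl16 in cultured cells, had 194 to 294 CPM in SOD1G86R mice and 204 to 235 CPM in WT mice, and Mettl16 had 35.0 to 45.5 CPM in SOD1G86R mice and 41.6 to 46.7 CPM in WT mice.

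The last list held 6 RNAs that are known to carry m6A, Malat1, Actb, Myc, Socs1, Socs3 and Cish. Its median log2 fold change was 0.41, against -0.01 over all genes tested. That median lies between Malat1 (0.23, SE 0.43) and Socs1 (0.58, SE 0.33), neither of them called. These 6 genes do not stand for all RNAs that carry m6A. Only Socs3 of these 6 was called by edgeR, beside 0.866% of all genes called higher. At an unadjusted p of 0.05 in edgeR 3 of the 6 were higher, Socs3, Myc and Actb, beside 10.8% of all genes. Actb had a log2 fold change of 0.23 (edgeR adjusted p = 0.114). The list is short and was chosen with earlier results of these data known, so nothing is read from these counts. Socs3, a feedback inhibitor of cytokine signalling, had 11.2, 9.04, 7.87, 2.37 and 10.6 CPM in SOD1G86R mice and 1.98, 2.29, 1.73, 1.95 and 1.80 CPM in WT mice. In SOD1G86R replicate 4 the level was just above the WT range, and in the other 4 it was 7.87 CPM or more. The log2 fold change was 2.08 (SE 0.34, edgeR adjusted p = 0.00917). The edgeR adjusted p of Socs3 was 1.93e-07 without SOD1G86R replicate 4 and between 0.0214 and 0.0367, no longer past the threshold, when any other mouse was left out. Microglia markers were also lowest in SOD1G86R replicate 4, at 402 CPM against 690 to 973 CPM in the other 4. Among those 4 the order differed, with the lowest microglia sum in replicate 2 and the lowest Socs3 in replicate 3. Replicate 4 also had the lowest astrocyte sum and the highest neuron and blood cell sums of its group. The part of any of these in the level of Socs3 was not tested. Myc, a transcription factor, had 7.13, 7.30, 6.54, 4.22 and 6.70 CPM in SOD1G86R mice and 3.85, 5.50, 3.16, 3.10 and 3.58 CPM in WT mice. Its log2 fold change was 0.74 (edgeR adjusted p = 0.0336), and its lowest SOD1G86R value, the only one inside the WT range, was again that of replicate 4. Without that mouse the edgeR adjusted p of Myc was 0.00266, past the threshold, and the part of the cell types was not tested. Cish, a relative of Socs3, had a log2 fold change of -0.0093. The counts measure RNA abundance, and m6A itself was not measured in these libraries.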

How the data were processed

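The authors extracted total RNA and aligned the reads to the mm10 assembly (TopHat2 2.0.14), and HTSeq 0.6.1 assigned them to the genes of Ensembl release 81. The deposited values are raw counts, without normalization. No kit and no strand setting is given in the sources used here. Of 32506 gene IDs, 32247 were matched to GENCODE M21 (GRCm38), which gave symbols, positions, exon lengths and transcript sequences.

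Counts were tested in R 4.3.3 with edgeR 4.0.16 (filterByExpr, TMM scaling, robust quasi-likelihood F test, Benjamini-Hochberg adjustment over all genes tested, threshold 0.01) on genotype alone. DESeq2 1.42.0, limma voom (limma 3.58.1), other scalings and filters, a replicate block and leaving out each mouse were alternatives. The code was tested on simulated data. A planned exact permutation test of ratios within a mouse is not reported, since Mettl14 was known to be lower. Depth limits precision through counting error only.

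The m6A genes and the pathway lists were chosen with earlier results of these data known. Named genes were the 10 m6A genes, every pathway gene past the test, the smallest p of each list, Sod1, the nearest tested gene on each side of Mettl14 and the 5 genes nearest to it in pattern. Rbm15b, Cbll1, Ythdf3, Mat2a, Mettl16, Malat1, Actb, Myc, Socs1 and Cish were named after their values were seen.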

Additional observations from a re-analysis of the deposited data

Results flagged for a closer look

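In WT mice, Alkbh5 was 94.4 CPM in replicate 5, apart from 102 to 105 CPM in the other 4 mice, a gap that was 0.747 of the whole range, where Dixon's limit for 5 samples is 0.71. The log2 ratio of Mettl14 to Alkbh5 was -1.75 in the same mouse, apart from -1.90 to -1.85 in the other 4 WT mice, and the 2 values share the Alkbh5 count. They were the 2 values past the limit among 66 groups of 5 mice examined, and chance alone puts about 1 in 20 groups past it.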

How the results depend on the processing

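None of the 9 partners of Mettl14 was called in any alternative. The log2 fold change of Mettl14, given as a description, stayed between -1.11 and -1.09, or between -1.13 and -1.08 with a mouse left out. The 190 genes called in all became 838 (731 higher, 107 lower) with DESeq2, 59 (29 higher, 30 lower) with limma voom, 298 (254 higher, 44 lower) without robust estimation, 781 (654 higher, 127 lower) at an adjusted p of 0.05, and 31 to 868 with a mouse left out, the 868 without SOD1G86R replicate 4. The 1 pathway gene called became 3 with DESeq2, 0 with limma voom, 0 without a filter, 2 at an adjusted p of 0.05, and 0 to 2 with a mouse left out. Zc3h13 and Ythdf1 changed sign under upper quartile scaling (-0.0021 and -0.0052) and library totals (-0.00012 and -0.0021). With a mouse left out, the ranges were -0.025 to 0.052 for Zc3h13, -0.012 to 0.016 for Ythdf1 and -0.062 to 0.019 for Ythdc1. The causes were not tested.

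Per kb of the longest transcript, WT levels were 47.5 for Fto, 17.7 for Ythdf1, 17.7 for Alkbh5, 17.3 for Wtap, 6.61 for Ythdf2, 6.17 for Virma, 8.77 for Ythdc1, 9.27 for Mettl3 and 3.91 for Mettl14.

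Replicate numbers are shared between the genotypes, but same-numbered mice deviated together with correlations from -0.37 to 0.29, and 1 of the 5 SOD1G86R mice correlated best with its own number, so the numbers were not taken as pairs. With the replicate block the genes called were 140, the partners called 0 and the pathway genes called 0. The Mettl14 to Mettl3 difference within replicate numbers was -1.07, a description with no test. The intervals of the partners set what 5 mice per genotype could show.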
